A study of Caenorhabditis elegans with 91 samples.

Results

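The F-box A genes of Caenorhabditis elegans (fbxa) were taken as every gene whose symbol begins with fbxa- and a digit. The rule found 222 members among 21965 genes in the tables of small RNA, and the same number among 30199 genes in those of mRNA. F-box proteins are the substrate receptors of SCF ubiquitin ligases: the F-box binds an SKR (Skp1-related) adaptor, the adaptor binds the cullin CUL-1 or CUL-6, and the rest of the protein picks the protein to be tagged. FBXA proteins carry the F-box together with an FTH (DUF38) domain, and the family is greatly expanded and fast evolving in nematodes. FBXA-158 and FBXA-75 are known partners of CUL-6 in the intracellular pathogen response. Most other members have no described target, so that no role is given for a member below unless one is known.

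The study asked whether small RNAs that depend on RDE-4 in neurons affect the germline and later generations. RDE-4 is the double-stranded RNA binding partner of Dicer, and SID-1 is the channel that lets cells take up double-stranded RNA. Small RNA was sequenced in 64 libraries and mRNA in 27, from whole one-day adults, their isolated neurons or their gonads. Values below come from deposited read counts per gene and are given as CPM, counts per 1e+06 gene counts after TMM scaling of the library sizes, so that they differ from plain shares of the gene counts. The small RNA value of a gene sums all small RNA reads assigned to it. No source used here says whether strand was used, so that reads from a gene and from an overlapping antisense gene cannot be told apart, and reads shared by near-identical members may have been split or dropped.

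At 20 °C, whole animals were N2 Bristol wild type (3 libraries), 3 transgenic lines with their progeny, and the rde-4(ne299) mutant (11 libraries). In pigSi3, an inserted copy of rde-4 followed by yfp was driven by the pan-neuronal sng-1 promoter in rde-4(ne299) animals that also carried a C. briggsae unc-119 rescue (3 libraries). pigEx9 carried the same sng-1 construct with a myo-3 promoter mCherry marker, and pigEx10 an rgef-1 promoter construct, also pan-neuronal, with an unc-122 promoter gfp marker. For both, transgenic P0 animals (6 libraries of pigEx9, 3 of pigEx10) and their rde-4(ne299) F1 and F3 descendants were sequenced (3 libraries each). The F3 of heterozygous pigSi3 animals, again rde-4(ne299), had 3 libraries. At 25 °C, N2 and rde-4(ne299) had 3 libraries each. Isolated neurons came from 3 genotypes that all carried the rab-3 promoter nuclear TagRFP marker otIs356: wild type (WT), pigSi3 in rde-4, and rde-4. Gonads without that marker came from pigSi3, its F3, sid-1(qt9); rde-4(ne299) with pigSi3, the same double mutant without it, and rde-4. Each transgene is a single named line, and nothing in the labels says whether replicates came from separate cultures, so that p-values cover only how far these libraries vary, which may be technical.

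Whole-animal small RNA libraries held 1792 to 31077625 gene counts (median 11013955). One pigEx9 F1 library with 1792 counts was left out, and the next lowest held 918317. Small RNA libraries held 735328 to 2530023 gene counts in neurons and 1841973 to 49953667 in gonads, and mRNA libraries held 2746062 to 36765116 over both tissues. The whole-animal libraries are listed in 6 sets. N2, pigSi3, pigEx9 and pigEx10 were compared with rde-4 libraries of their own sets, since fbxa levels differ between sets. The F1 and F3 of pigEx9 are listed only in the first of the pigEx9 sets. Their fit also held the rde-4 libraries of the second. The F3 of pigSi3, whose set holds no rde-4 library, and the temperatures were compared across sets. The small RNA reads of rde-4 itself lay at 3280 to 7740 CPM in pigEx9 P0 and 2660 to 3860 CPM in pigEx10 P0, against 69.1 to 242 CPM in rde-4 animals. They lay at 87.1 to 93.4 CPM in pigSi3, within the rde-4 range, and at 130 to 171 CPM in N2 at 20 °C, so that in whole animals this count does not tell pigSi3 or N2 from rde-4. Its mRNA lay at 275 to 321 CPM in pigSi3 neurons and 9.18 to 27.5 CPM in WT neurons, against 1.99 to 3.97 CPM in rde-4 neurons. In rde-4 libraries, all 12 neuron markers were higher and all 12 germline markers lower in neuron than in gonad mRNA. That order follows the tissue labels, but other lists differed as well. In mRNA, 8 muscle markers summed to 10210 to 16700 CPM in rde-4 neurons, against 336.5 to 677.7 CPM in rde-4 gonads. The 10 intestine markers summed to 151.9 to 342.7 CPM in rde-4 neurons, against 1384 to 2997 CPM in rde-4 gonads. How much of the mRNA of either tissue came from other cells was not tested. Small RNA set the tissues less far apart. Its germline markers summed to 1688 to 1814 CPM in rde-4 neurons, against 2939 to 3023 CPM in rde-4 gonads. Its neuron markers summed to 690.7 to 850 CPM and 266.5 to 405.3 CPM, each scaled within its tissue. How much of the neuron small RNA came from other cells was not tested.

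Small RNA reads were found for every member of the family. In whole rde-4 animals at 20 °C, 119 members averaged at least 1 CPM, 73 at least 10 CPM and 20 at least 100 CPM. The summed fbxa small RNA of these 11 libraries was 11300 ± 1090 CPM (SD, n = 11). As shares of fbxa reads, which are not corrected for transcript length, fbxa-218 held 16.3% (1837 ± 207 CPM), followed by fbxa-192, fbxa-149, fbxa-203, fbxa-67, fbxa-150, fbxa-117 and fbxa-193. These 8 members together held 61.5%. By a mean of 1 CPM, fewer members had mRNA than small RNA. In rde-4 neurons, 118 members averaged at least 1 CPM of small RNA and 46 at least 1 CPM of mRNA, and 32 did both. That level is below 3 counts in the neuron small RNA libraries (2.28 and 2.85 CPM), and by any count the difference was smaller, with 132 and 133 members in the small RNA libraries and fewer in each mRNA library, the lowest having 75. In rde-4 gonads the counts were 111, 55 and 50. Of the 13 members with at least 100 CPM of small RNA in neurons, 6 had under 1 CPM of mRNA there, and in gonads this held for 7 of 21. Across members, Spearman's rho between mean small RNA and mean mRNA was 0.412 in neurons and 0.637 in gonads, as a description over genes that share libraries. FBXA-158 and FBXA-75, the CUL-6 partners, were near the bottom of the range: fbxa-158 had at most 0.94 CPM and fbxa-75 at most 0.185 CPM of small RNA in any library, neither had a count in neuron mRNA, and in gonad mRNA fbxa-158 reached 0.33 CPM and fbxa-75 stayed at 0.

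N2 and rde-4 whole animals at 20 °C were compared to ask which fbxa small RNAs depend on RDE-4. Small RNAs of fbxa-61, fbxa-52 and fbxa-46 were nearly absent from rde-4 animals and present in N2. For fbxa-61, the 3 N2 libraries held 131, 134 and 166 CPM, against 0.45, 0.658 and 1.11 CPM in the 3 rde-4 libraries of the same set. All 11 rde-4 libraries lay between 0.161 and 1.77 CPM, far below N2. The log2 difference was 7.51 (SE 0.21, adjusted p = 1.75e-09 by edgeR's quasi-likelihood test with Benjamini-Hochberg adjustment). For fbxa-52, N2 held 42.5, 28.0 and 46 CPM, against 0.4, 0.274 and 0.333 CPM in rde-4, and no other rde-4 library at 20 °C exceeded 1.03 CPM. The log2 difference was 6.80 (SE 0.25, adjusted p = 1.49e-08, edgeR). For fbxa-46, N2 held 20.0, 7.42 and 8.42 CPM, against 0.05, 0.713 and 0.259 CPM in rde-4, a log2 difference of 5.16 (SE 0.63, adjusted p = 0.000309, edgeR). In summed counts the N2 to rde-4 ratio was 180 for fbxa-61 (95% exact interval 137 to 242), 114 for fbxa-52 (75.2 to 183) and 38.5 for fbxa-46 (25.0 to 62.6), where the intervals cover counting error only.

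**Figure D1:**
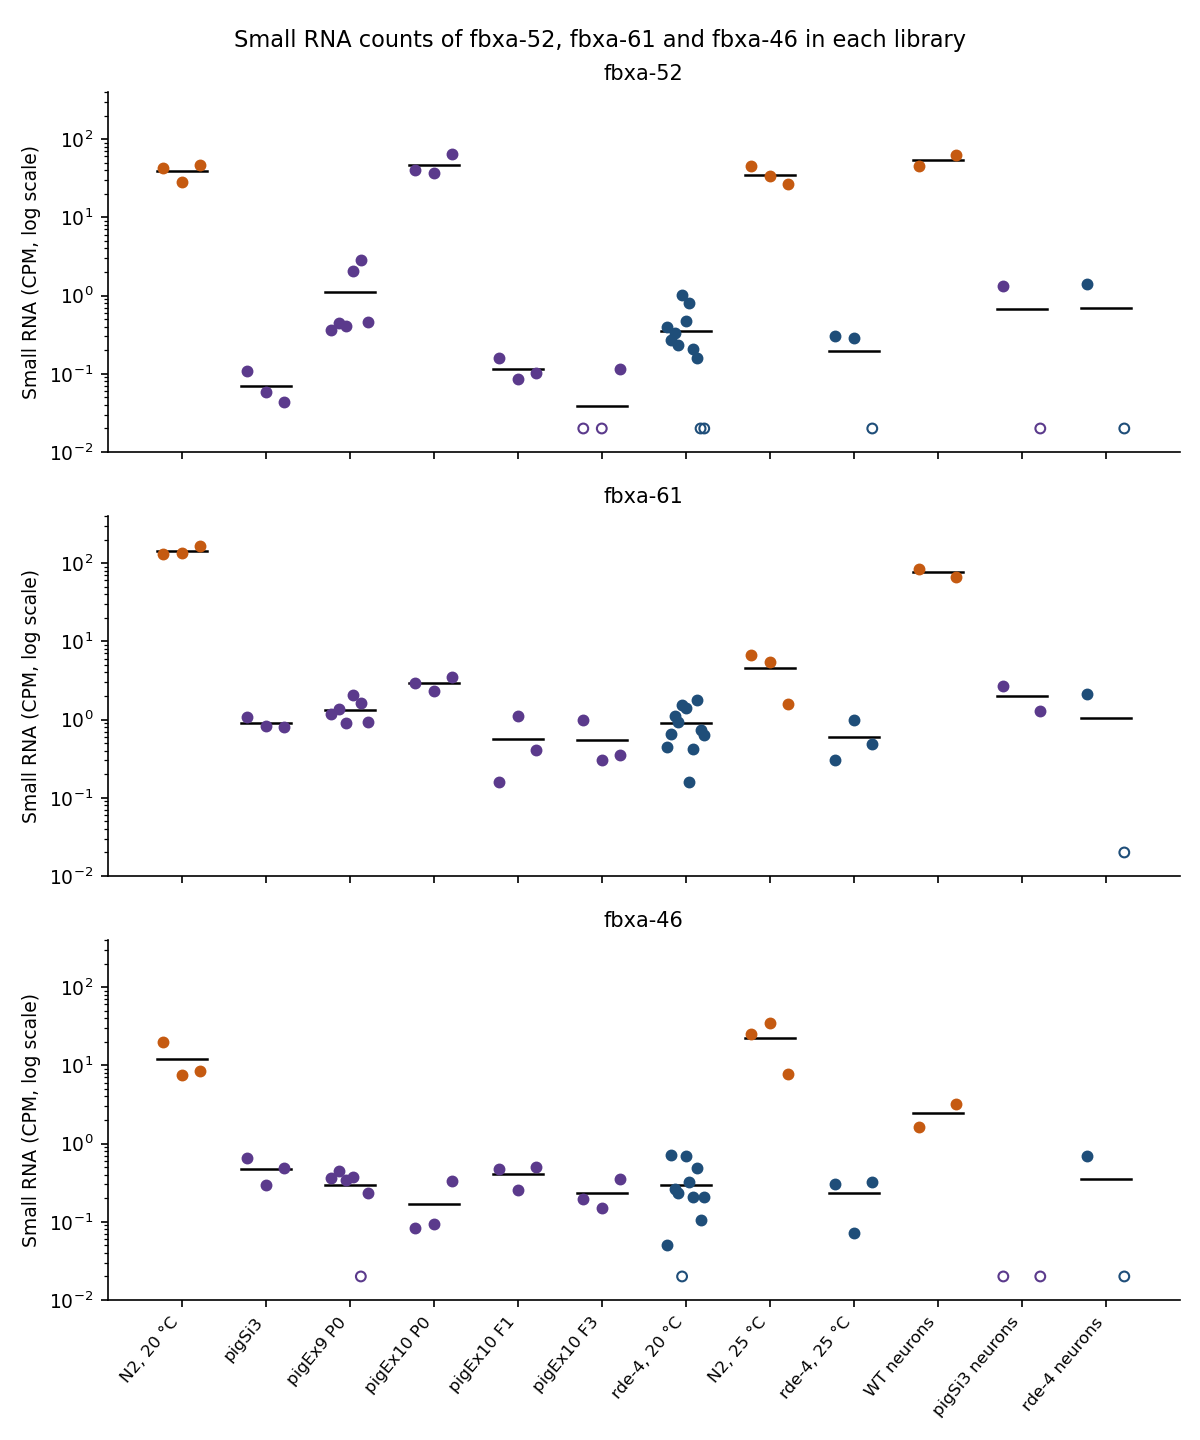
Small RNA of fbxa-52, fbxa-61 and fbxa-46 in CPM on a log axis, 1 point per library, by group. Bars are group means and hollow points at the bottom are libraries with 0 counts. At each temperature N2 stands above the rde-4 libraries of that temperature for all 3 genes, although the lowest N2 value of fbxa-61 at 25 °C, 1.59 CPM, is within the rde-4 range at 20 °C. Of the transgenic whole-animal groups only pigEx10 P0, at 36.5 to 63.6 CPM, reaches the N2 range of fbxa-52.

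The same 3 genes stood out at 25 °C, in separate libraries. fbxa-52 held 45.3, 34.2 and 26.3 CPM in N2, against 0.306, 0.284 and 0 CPM in rde-4. The groups did not overlap, and the log2 difference was 7.34 (SE 0.44, adjusted p = 3.86e-07, edgeR). fbxa-46 held 25.3, 34.9 and 7.84 CPM in N2, against 0.306, 0.0711 and 0.321 CPM in rde-4, a log2 difference of 6.96 (SE 1.01, adjusted p = 0.000573, edgeR). fbxa-61 was much lower in N2 at 25 °C than at 20 °C. It held 6.73, 5.45 and 1.59 CPM in N2 at 25 °C, against 0.306, 0.995 and 0.482 CPM in rde-4, a log2 difference of 2.62 (SE 0.57, adjusted p = 0.00575, edgeR). Its N2 difference was thus smaller at 25 °C than at 20 °C by 4.89 on the log2 scale (SE 0.87, adjusted p = 0.015 for the interaction in edgeR). Without the second rde-4 library at 25 °C this value was -4.08 and the call was lost, and over all alternatives its adjusted p reached 0.249. fbxa-61 was the only member called in that interaction, of 136 tested, while 2.13% of all genes were called. An unadjusted p under 0.05 was reached by 23 members, and DESeq2 called 9. The count was 6 without the third N2 library at 25 °C, 6 without the third rde-4 library at 25 °C and 2 without the third rde-4 library at 20 °C.

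In neurons, with 2 libraries per genotype, fbxa-61 and fbxa-52 were again higher in WT. fbxa-61 held 85.2 and 67.1 CPM in WT neurons, against 2.11 and 0 CPM in rde-4 neurons (log2 difference 5.85, SE 0.54, adjusted p = 9.42e-07, edgeR). fbxa-52 held 44.7 and 63.1 CPM in WT neurons, against 1.4 and 0 CPM in rde-4 neurons (log2 difference 5.88, SE 0.67, adjusted p = 1.63e-05, edgeR). Both WT libraries stood far above both rde-4 libraries for both genes. The rde-4 neuron libraries held 3 counts of fbxa-61 and 2 of fbxa-52 in all, so that the ratios are known only within 21.1 to 304 and 17 to 520 (95% exact intervals). fbxa-24 was the last of 3 members called, of 75 tested: 18.9 and 28.3 CPM in WT neurons, against 7.02 and 1.89 CPM in rde-4 neurons, a log2 difference of 2.24 (SE 0.56, adjusted p = 0.0354, edgeR), and its call was lost with DESeq2 and in 3 fits with 1 library left out. These 3 calls make 4% of the members tested, and 3.34% of all genes were called in WT against rde-4 neurons. With library totals in place of TMM scaling, 3 members were higher and 1 lower. The small RNA of 12 neuron markers summed to 2027 and 2313 CPM in WT neurons, against 690.7 and 850 CPM in rde-4 neurons, and its part in these differences was not tested. In the mRNA tables, fbxa-52 reached at most 0.174 CPM, fbxa-61 1.42 CPM and fbxa-46 4.01 CPM.

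Beyond these genes, N2 differed from rde-4 animals at 20 °C in 45 of 138 members tested, 18 higher and 27 lower in N2. That is 32.6% of the members tested, beside 31.4% of all genes, so the share of members called was near the background. By direction it was 13.0% higher, beside 14.5% of all genes, and 19.6% lower, beside 16.9%. The median log2 difference was -0.18 over the members and 0.00 over all genes. The balance of directions depends on the scaling: with library totals, which move the median of all genes to -0.25, 9 members were higher and 55 lower in N2. Against all 11 rde-4 libraries, 7 were higher and 26 lower. Without the first rde-4 library 29 members were called. The small RNA of 12 neuron markers summed to 128 to 138 CPM in N2, against 193.4 to 477 CPM in the 11 rde-4 libraries, and its part in these counts was not tested. Fewer cells of a type and less RNA per cell cannot be told apart in such bulk samples. Among related genes, 21 F-box B and C genes were higher and 17 lower of 136 tested, 4 SCF and cullin genes were higher and 4 lower of 31, and 5 of 7 intracellular pathogen response genes tested were lower. Further members higher in N2 were fbxa-55, fbxa-53, fbxa-203, fbxa-120, fbxa-153, fbxa-126 and fbxa-149, with log2 differences of 0.48 to 2.35. fbxa-53, separated from fbxa-52 by 1 gene in the RefSeq gene order, held 11.5, 10.8 and 9.45 CPM in N2, against 5.2, 6.14 and 5.81 CPM in rde-4 (log2 difference 0.87, adjusted p = 0.00379, edgeR). It overlapped N2 in the other sets, where rde-4 libraries reached 11.7 CPM, and its call and those of fbxa-203, fbxa-120 and fbxa-153 were lost against all 11 rde-4 libraries. The calls of fbxa-120, fbxa-153, fbxa-126 and fbxa-149 were lost with library totals.

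fbxa-55 varied widely among the rde-4 libraries. It held 5.36, 5.17 and 7.63 CPM in N2, against 1.2, 1.21 and 1.07 CPM in the rde-4 libraries of the same set (log2 difference 2.35, SE 0.23, adjusted p = 5.3e-05, edgeR). In the other rde-4 libraries it was either at 0.21 to 0.805 CPM or at 14.2 to 31.2 CPM, with 4 libraries in the upper range, and against all 11 the log2 difference was -0.72. The same split into low and high libraries appeared in pigEx9 P0, where 4 libraries held 0.768 to 1.13 CPM and the others 47.7 and 88.3 CPM. What separates these libraries was not tested.

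Members lower in N2 at 20 °C included fbxa-107, fbxa-4, fbxa-79, fbxa-181, fbxa-60, fbxa-106, fbxa-43, fbxa-112, fbxa-37 and fbxa-168, with log2 differences of -1.41 to -0.67. fbxa-107 held 62.7, 60.8 and 71.7 CPM in N2, against 153, 133 and 157 CPM in rde-4, and between 123 and 211 CPM in all 11 rde-4 libraries. All N2 libraries lay well below the lowest rde-4 library, and the log2 difference was -1.21 (SE 0.09, adjusted p = 4.36e-06, edgeR). At 25 °C the same gene held 41.4, 42.2 and 31.3 CPM in N2, against 72.7, 72.7 and 78.1 CPM in rde-4 (log2 difference -0.97, adjusted p = 0.000289, edgeR). The calls of fbxa-4, fbxa-37 and fbxa-168 were lost against all 11 rde-4 libraries, and those of fbxa-43 and fbxa-112 in fits with 1 library left out.

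At 25 °C, 19 of 136 members were higher and 13 lower in N2 than in rde-4, 23.5% beside 24.8% of all genes. Of all genes, 11.8% were higher and 13% lower. With library totals the split was 14 higher and 20 lower, and without the second N2 library 21 members were called. Called in the same direction at both temperatures were 9 members that were higher in N2 (fbxa-46, fbxa-52, fbxa-53, fbxa-61, fbxa-120, fbxa-126, fbxa-153, fbxa-203 and fbxa-212) and 9 that were lower (fbxa-60, fbxa-106, fbxa-107, fbxa-135, fbxa-155, fbxa-168, fbxa-195, fbxa-207 and fbxa-223). None of the 133 members tested at both was called in opposite directions by edgeR. Over all 12435 genes tested at both, 736 were higher at both, 921 lower at both and 47 opposite. Among the members called at 25 °C were also fbxa-195 (log2 difference -3.60, adjusted p = 0.000644, edgeR), fbxa-60 (-2.58, adjusted p = 0.000207, edgeR), fbxa-97 (1.93, adjusted p = 0.00752, edgeR) and fbxa-63 (1.63, adjusted p = 0.00885, edgeR), and for none of these did the difference between the temperatures pass the test. Of 11 neuron markers tested, 5 were lower in N2 at 25 °C, and their part was not tested.

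**Figure D2:**
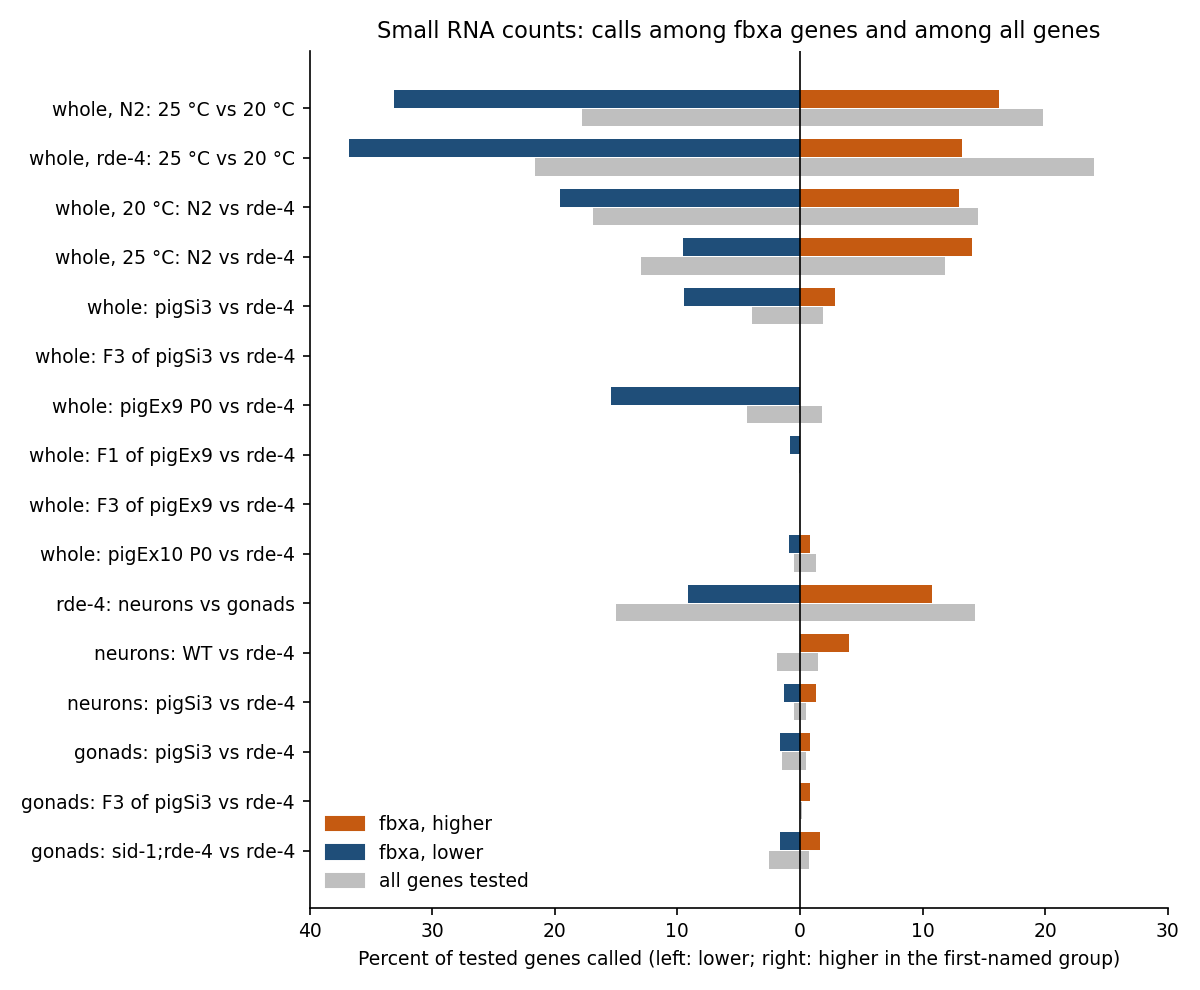
Share of the fbxa members tested (colour) and of all genes tested (grey) called lower (left) or higher (right) in the first-named group, in percent, for the small RNA comparisons. Members called lower exceed the share of all genes at 25 °C against 20 °C (33.1% beside 17.8% in N2, 36.8% beside 21.6% in rde-4), in pigSi3 (9.42% beside 3.94%) and in pigEx9 P0 (15.4% beside 4.31%).

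The pigSi3 line was compared with rde-4 to ask which fbxa small RNAs follow neuronal RDE-4 in whole animals. fbxa-193 and the nearby fbxa-191 were several times higher in pigSi3, and more members were lower than higher. fbxa-193 held 1918, 1714 and 1321 CPM in pigSi3, against 322, 305 and 626 CPM in rde-4 of the same set. The highest of all 11 rde-4 libraries, at 1120 CPM, was still below the lowest of pigSi3, and N2 lay at 265 to 272 CPM. The log2 difference was 1.99 (SE 0.25, adjusted p = 0.00114, edgeR), and it was 1.68 against all 11 rde-4 libraries. fbxa-191 held 227, 200 and 127 CPM in pigSi3, against 61.3, 48.5 and 65.4 CPM in rde-4 (log2 difference 1.67, SE 0.22, adjusted p = 0.00168, edgeR). The groups did not overlap within the set, while the highest of all 11 rde-4 libraries reached 128 CPM. fbxa-191, fbxa-192, fbxa-193, fbxa-129 and fbxa-108 are 5 members in a row in the RefSeq gene order. fbxa-108 was also higher in pigSi3, at 18.5, 21.4 and 27.9 CPM against 14.7, 13.7 and 17.2 CPM in rde-4 (log2 difference 0.56, adjusted p = 0.0381, edgeR), a call lost against all 11 rde-4 libraries and in 5 fits with 1 library left out. fbxa-129 held 29.6, 44.3 and 90.7 CPM in pigSi3, against 22, 19.5 and 27.5 CPM in rde-4, and missed the threshold (log2 difference 1.23, SE 0.32, adjusted p = 0.0559, edgeR). fbxa-192, between the genes with the largest differences, had a log2 difference of -0.12 (adjusted p = 0.77, edgeR).

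In all, 4 members were higher and 13 lower in pigSi3, of 138 tested. This is 12.3% beside 5.86% of all genes, of which 1.92% were higher and 3.94% lower, and the median log2 difference was -0.16 over the members and 0.02 over all genes. Same-numbered libraries deviated together here, although no label names pairs, and with the number as a block 5 were higher and 23 lower. DESeq2 called 8 higher and 14 lower, and against all 11 rde-4 libraries 4 were higher and 5 lower. The count fell to 7 without the second rde-4 or the second pigSi3 library, to 8 without the first rde-4 or the third pigSi3 library and to 9 without the third rde-4 library. The fourth member higher in pigSi3 was fbxa-106 (log2 difference 0.76, adjusted p = 0.00472, edgeR), lost against all 11 rde-4 libraries. fbxa-79 held 3.25, 3.48 and 2.52 CPM in pigSi3, against 8.55, 11 and 9.8 CPM in rde-4 (log2 difference -1.68, SE 0.21, adjusted p = 0.000954, edgeR), with N2 at 3.21 to 4.34 CPM. Lower without overlap were also fbxa-60, fbxa-175 (-1.06, adjusted p = 0.00393, edgeR), fbxa-109 (-0.84, adjusted p = 0.00657, edgeR), fbxa-23, fbxa-37, fbxa-66, fbxa-3, fbxa-118 and fbxa-194, of which fbxa-3, fbxa-23, fbxa-37, fbxa-66, fbxa-118 and fbxa-194 lost the call in several alternatives. The F-box B and C genes stood at 1 higher and 5 lower of 136. Markers moved with this comparison: 3 of 11 neuron markers tested and 1 of 3 muscle markers were called lower in pigSi3, and their part in these results was not tested.

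fbxa-60 was called lower than in rde-4 in N2 at both temperatures and in pigSi3 whole animals, neurons and gonads. In whole animals at 20 °C it held 73.3, 52.3 and 42.8 CPM in pigSi3 and 76.3, 55.8 and 80.0 CPM in N2, against 128, 153 and 124 CPM in rde-4. No pigSi3 or N2 library reached the lowest of the 11 rde-4 libraries, at 95.2 CPM. The log2 differences from rde-4 were -1.27 for pigSi3 (SE 0.21, adjusted p = 0.00626, edgeR) and -0.96 for N2 (adjusted p = 0.00658, edgeR), and both used the same rde-4 libraries. In neurons it held 20.2 and 31.3 CPM in pigSi3 and 48.0 and 64.7 CPM in WT, against 102 and 82.4 CPM in rde-4. Only the pigSi3 difference was called there (log2 difference -1.82, SE 0.26, adjusted p = 0.000711, edgeR). In pigEx9 P0 it lay at 118 to 162 CPM, within the rde-4 range.

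**Figure D3:**
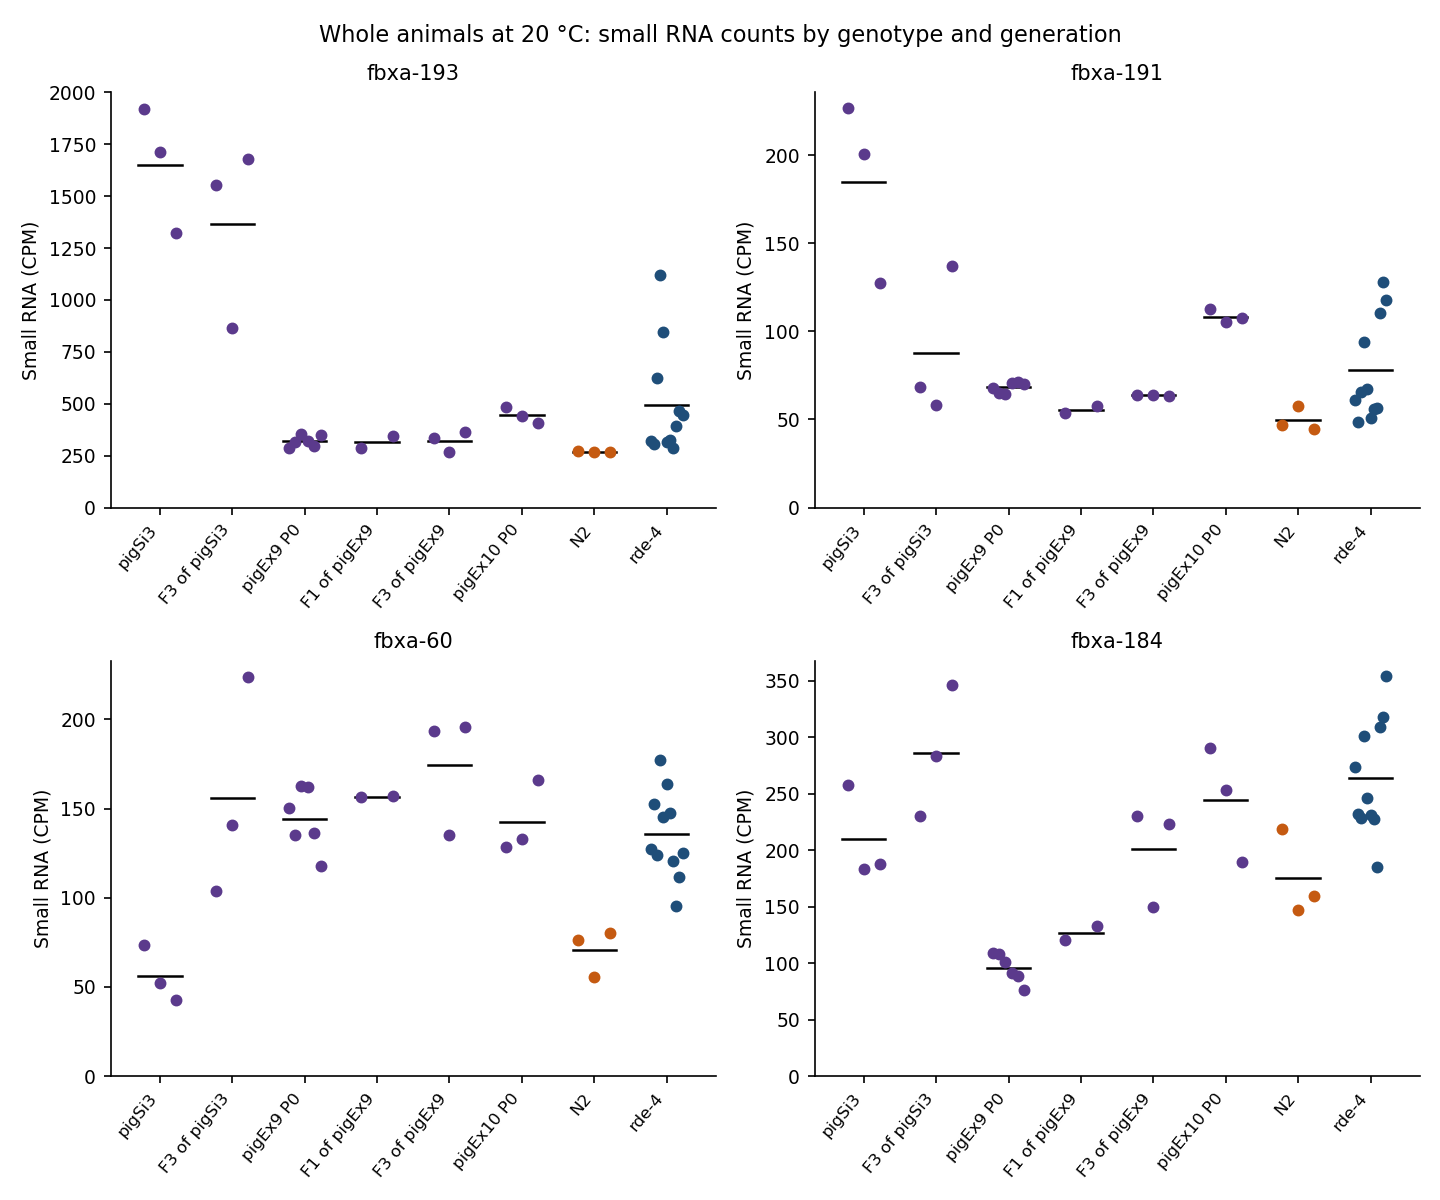
Small RNA of fbxa-193, fbxa-191, fbxa-60 and fbxa-184 in CPM, 1 point per whole-animal library at 20 °C, by group, with bars at group means. fbxa-193 is at 1321 to 1918 CPM in pigSi3 and 863 to 1677 CPM in its F3, and at 286 to 1120 CPM in rde-4, while fbxa-184 is at 76.1 to 109 CPM in pigEx9 P0 and 185 to 354 CPM in rde-4.

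The F3 of heterozygous pigSi3 animals, labelled as rde-4(ne299) with no transgene named, had no member that passed the test in whole animals. edgeR called 0 of 123 members, beside 0.0172% of all genes, with 22 members at an unadjusted p under 0.05, and DESeq2 called 2, both higher. One of these was fbxa-193, which held 1552, 863 and 1677 CPM in the F3 libraries, against 286 to 1120 CPM (median 394) in the 11 rde-4 libraries. The groups overlapped, and the log2 difference was 1.42 (adjusted p = 0.178, edgeR). These F3 libraries have no rde-4 library in their own set, so that set and generation cannot be told apart.

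In pigEx9 P0 animals, every member that passed the test was lower than in rde-4. There were 19 of 123 tested, 15.4% beside 6.15% of all genes, of which 4.31% were lower and 1.84% higher. The median log2 difference was -0.21 over the members and 0.00 over all genes. fbxa-184 held 109, 108, 101, 91.1, 88.3 and 76.1 CPM in the 6 P0 libraries, against 301, 246, 231, 228 and 185 CPM in the 5 rde-4 libraries of the same sets. The 2 groups stood well apart, and the log2 difference was -1.40 (SE 0.11, adjusted p = 1.9e-07, edgeR). fbxa-178 held 15.3 to 38.1 CPM in P0, against 43.7 to 86.4 CPM in rde-4 (log2 difference -1.30, SE 0.11, adjusted p = 6.99e-07, edgeR). fbxa-3 held 8.12 to 25.1 CPM in P0, against 28.0 to 59 CPM in rde-4 (-1.58, adjusted p = 9.28e-05, edgeR), and fbxa-153 held 11.1 to 13.2 CPM in P0, against 20.1 to 33.0 CPM in rde-4 (-1.04, adjusted p = 5.78e-05, edgeR). fbxa-180, fbxa-115 and fbxa-150 were lower without overlap too, by 0.63 to 1.92 on the log2 scale. The calls of these 3 were lost in the second of the sets alone, where 6 members were called. fbxa-165 was lower without overlap by 3.55, but it fell short of the mean of 5 CPM set for naming a gene. fbxa-90 and 10 further called members overlapped in CPM between the groups. The F-box B and C genes stood at 1 higher and 9 lower of 112. The small RNA of 8 muscle markers summed to 218.9 to 346.8 CPM in P0, against 89.78 to 209 CPM in the 11 rde-4 libraries, and that of 12 neuron markers to 328.9 to 622.9 CPM in P0, against 193.4 to 477 CPM. Of those tested, 1 of 3 muscle markers was called higher and 2 of 11 neuron markers lower, and their part in the fbxa differences was not tested. The count fell to 11 without the first P0 library or the fourth rde-4 library, and to 12 without the second or the third P0 library.

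In the F1 of pigEx9, fbxa-184 was the only member called, of 123, beside 0.108% of all genes. It held 121 and 133 CPM in the F1 libraries, below all 5 rde-4 libraries of the same sets (log2 difference -1.15, adjusted p = 0.0123, edgeR), and the call was lost without either F1 library. In the F3 of pigEx9 fbxa-184 held 230, 150 and 223 CPM, within the rde-4 range but for 1 library. edgeR called no member in that F3, beside 0.027% of all genes, with 13 members at an unadjusted p under 0.05, and DESeq2 called 0. With the first of the sets alone, the only one that lists F1 and F3, the counts were 8 in F1 and 5 in F3. Since P0, F1 and F3 share their rde-4 libraries, these values are given side by side only.

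pigEx10 P0 animals had 1 member higher and 1 lower of 117 tested, 1.71% beside 1.8% of all genes. fbxa-52 held 40.0, 36.5 and 63.6 CPM in pigEx10 P0, against 0.161, 0 and 0 CPM in the rde-4 libraries of the set. Its level in pigEx10 P0 was in the range of N2, and the log2 difference was 9.57 (adjusted p = 3.6e-07, edgeR). That value rests on 1 rde-4 count: the ratio of summed counts was 918, with a 95% exact interval of 164 to 36280. fbxa-52 stayed low in the sng-1 lines, with 0.0442 to 0.108 CPM in pigSi3 and 0.361 to 2.89 CPM in pigEx9 P0, and in pigEx10 F1 (0.0851 to 0.157 CPM) and F3 (0 to 0.116 CPM). fbxa-61 held only 2.91, 2.33 and 3.47 CPM in pigEx10 P0 and was not called there. fbxa-90 held 16.4, 14.8 and 13.9 CPM in pigEx10 P0, against 50.6, 32.0 and 42.9 CPM in rde-4 (log2 difference -1.43, SE 0.18, adjusted p = 0.000533, edgeR). DESeq2 called 2 higher and 2 lower, and against all 11 rde-4 libraries 5 members were called. The 8 muscle markers summed to 882.6 to 1116 CPM of small RNA in pigEx10 P0, against 89.78 to 209 CPM in the 11 rde-4 libraries. Their sums were 86.21 to 132.7 CPM in F1 and 123.5 to 163.3 CPM in F3, and their part was not tested. edgeR called no member in F1, beside 0.355% of all genes, with 6 members at an unadjusted p under 0.05 and 2 called by DESeq2. It called none in F3 either, beside 0.355%, with 7 members at an unadjusted p under 0.05 and none called by DESeq2.

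Growth at 25 °C was set against 20 °C in each strain, with separate libraries for the strains. In both, many fbxa small RNAs were lower at 25 °C, and a few abundant ones were higher. In N2, 22 of 136 members were higher and 45 lower at 25 °C, 49.3% beside 37.6% of all genes, and the lower ones made 33.1% beside 17.8% of all genes, the higher ones 16.2% beside 19.8%. In rde-4, 18 were higher and 50 lower, 50% beside 45.6%, and the lower ones made 36.8% beside 21.6%, the higher ones 13.2% beside 24%. The median log2 difference over the members was -0.30 in N2 and -0.38 in rde-4, against -0.02 in N2 and 0.01 in rde-4 over all genes. With library totals, which moved the median of all genes to -0.34 in N2 and -0.44 in rde-4, the splits were 16 higher and 61 lower in N2 and 13 higher and 81 lower in rde-4. In both strains, 40 members were lower and 12 higher, and edgeR called none in opposite directions. Over all 12762 genes, 1683 were lower in both, 1895 higher in both and 34 opposite. The 25 °C libraries are listed apart from the 20 °C libraries, so that temperature and set cannot be told apart.

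fbxa-168 was higher at 25 °C in both strains. In N2 it held 88.7, 55.2 and 70.4 CPM at 25 °C, against 13.1, 9.79 and 12.0 CPM at 20 °C. In rde-4 it held 246, 242 and 117 CPM at 25 °C, against 19.3, 15.8 and 19.3 CPM at 20 °C. All libraries at 25 °C lay above the highest of all 11 rde-4 libraries at 20 °C, 33.2 CPM, and the log2 differences were 2.78 in N2 (SE 0.28, adjusted p = 1.61e-05, edgeR) and 3.63 in rde-4 (SE 0.29, adjusted p = 2.3e-06, edgeR). fbxa-43 in N2 held 33.9, 26 and 14.8 CPM at 25 °C, against 5.93, 2.86 and 4.42 CPM at 20 °C, and in rde-4 it held 47.4, 54.9 and 31.6 CPM at 25 °C, against 6.55, 8.83 and 7.51 CPM at 20 °C. Its temperatures did not overlap in either strain, with log2 differences of 2.66 in N2 (adjusted p = 0.000105, edgeR) and 2.70 in rde-4 (adjusted p = 5.74e-05, edgeR). Other members higher in both strains were fbxa-149, fbxa-93, fbxa-166, fbxa-129, fbxa-217, fbxa-139 and fbxa-218, by 1.17 to 2.33 on the log2 scale.

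The summed family small RNA averaged more CPM at 25 °C although more members were lower, and 3 abundant members were higher. The sum was 16570 ± 3550 CPM in N2 at 25 °C, against 11620 ± 621 CPM at 20 °C (SD, n = 3 each), and 14950 ± 3440 CPM in rde-4 at 25 °C (SD, n = 3), against 11300 ± 1090 CPM at 20 °C (SD, n = 11). In N2 the temperatures did not overlap, while 1 rde-4 library at 25 °C, at 11279 CPM, lay inside the 20 °C range of 9539.7 to 13810 CPM. The sums depend on the scaling: as a plain share of gene counts the family made 1.26% in N2 at 25 °C, against 0.995% at 20 °C, but 1.23 ± 0.147% in rde-4 at 25 °C (SD, n = 3), against 1.19 ± 0.0873% at 20 °C (SD, n = 11), a difference smaller than the spread. fbxa-149, fbxa-218 and fbxa-192 together averaged 9791 CPM in N2 at 25 °C, against 4434 CPM at 20 °C, and 8580 CPM in rde-4 at 25 °C, against 3802 CPM at 20 °C. All other members together averaged 6776 CPM in N2 at 25 °C, against 7185 CPM at 20 °C, and 6368 CPM in rde-4 at 25 °C, against 7496 CPM at 20 °C. In N2, fbxa-149 held 4615, 4124 and 2919 CPM at 25 °C, against 1370, 1209 and 1205 CPM at 20 °C (log2 difference 1.79, adjusted p = 0.000167, edgeR). In rde-4 the same gene held 4094, 2793 and 2294 CPM at 25 °C, against 896, 827 and 956 CPM at 20 °C (1.94, SE 0.26, adjusted p = 6.98e-05, edgeR). The temperatures did not overlap for it in either strain. fbxa-192 missed the test in N2 (0.82, adjusted p = 0.0568, edgeR), where the temperatures overlapped, and passed it in rde-4 (1.03, adjusted p = 0.0176, edgeR).

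**Figure D4:**
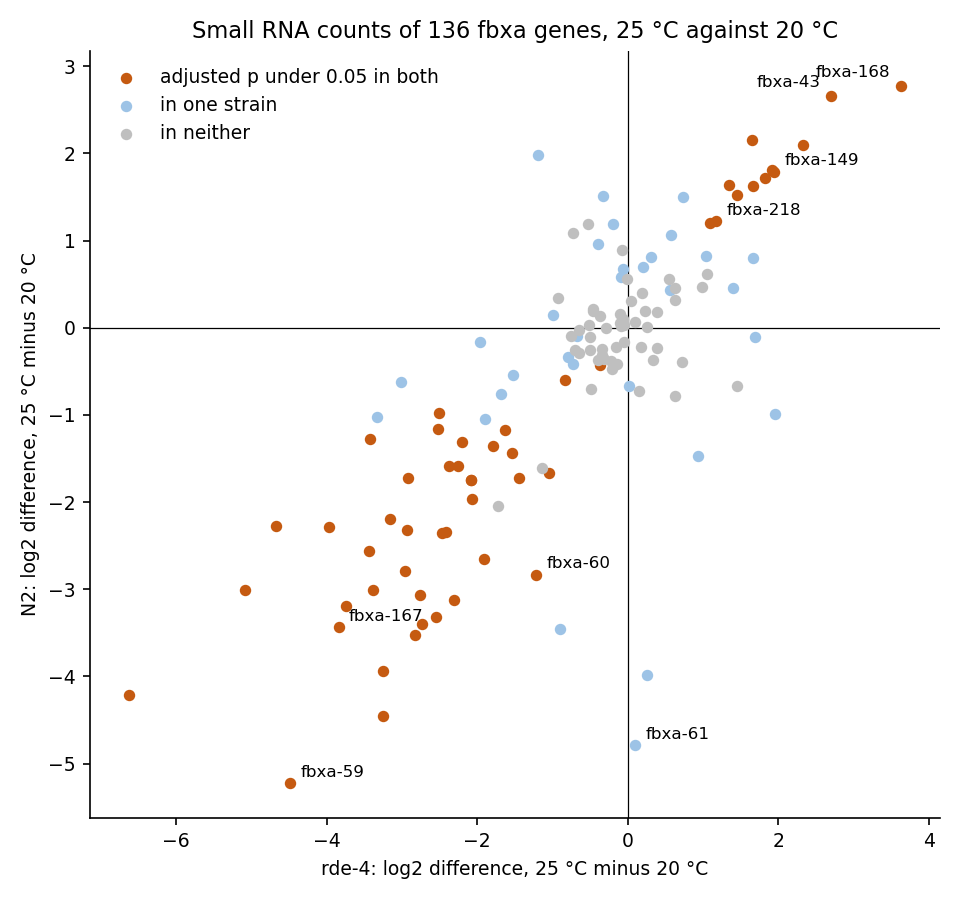
Log2 difference in small RNA between 25 °C and 20 °C in rde-4 (horizontal axis) and N2 (vertical axis) for 136 members, 1 point per gene, coloured by whether both strains, 1 or neither passed the test. Points called in both strains lie in the lower left (40 members) and the upper right (12 members), and fbxa-61 lies apart at -4.79 in N2 and 0.10 in rde-4.

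At the other end, fbxa-59 in N2 held 1.02, 0.792 and 0.0992 CPM at 25 °C, against 24, 28.2 and 28.8 CPM at 20 °C. In rde-4 it held 0.917, 0.569 and 1.28 CPM at 25 °C, against 21.6, 21.9 and 19.2 CPM in the compared libraries at 20 °C. Every 25 °C library lay far below every 20 °C library of its strain. The log2 differences were -5.22 in N2 (SE 0.40, adjusted p = 2.04e-06, edgeR) and -4.48 in rde-4 (SE 0.41, adjusted p = 4.76e-06, edgeR). fbxa-167 fell by 3.43 on the log2 scale in N2 (SE 0.25, adjusted p = 1.53e-06, edgeR) and by 3.84 in rde-4 (SE 0.27, adjusted p = 7.38e-07, edgeR), to 0.893 to 1.61 CPM at 25 °C. It lies directly beside fbxa-168, which was higher at 25 °C, so that these neighbours moved in opposite directions. fbxa-126, fbxa-79, fbxa-4, fbxa-37, fbxa-180 and fbxa-188 were lower in both strains too. fbxa-61 was called in N2 (log2 difference -4.79, SE 0.40, adjusted p = 4.92e-06, edgeR) and not in rde-4 (0.10, adjusted p = 0.92, edgeR), where it was near 0 at both temperatures. fbxa-60, separated from fbxa-59 by 1 gene, was lower by 2.83 in N2 (adjusted p = 4.61e-05, edgeR) and by 1.22 in rde-4 (adjusted p = 0.00537, edgeR) on the log2 scale.

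Of 132 related F-box B and C genes tested, 62 were called lower and 5 higher at 25 °C in N2 (median log2 difference -0.91), and 61 lower and 9 higher in rde-4 (median -0.88), so that about as many were not called as were. Of 31 SCF and cullin genes, 9 were lower and 6 higher in N2 and 11 lower and 5 higher in rde-4, and of 7 genes of the intracellular pathogen response 3 were lower and 1 higher in N2 and 4 lower in rde-4. Of all genes, 17.8% were lower and 19.8% higher in N2, and 21.6% lower and 24% higher in rde-4. Markers moved too: of 11 neuron markers 5 were lower and 2 higher in N2 and 6 lower and 3 higher in rde-4, of 12 germline markers 3 were lower in each strain, and of 3 muscle markers 2 were lower in N2 and 3 in rde-4. Their part in the fbxa differences was not tested.

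The mRNA of the family was compared between neuron and gonad libraries of rde-4 animals to see in which its reads were found. Muscle and intestine markers also differed between these libraries, as given above, and their part was not tested. Most members that could be tested differed, and fbxa-24 dominated the neuronal reads. It held 1737, 1545, 2575 and 1144 CPM in rde-4 neurons, against 5.84, 8.17 and 3.48 CPM in rde-4 gonads. These CPM are scaled within each tissue, and the joint fit of both tissues gave a log2 difference of 9.16 (SE 0.60, adjusted p = 8.14e-08, edgeR), and fbxa-24 made up 78.1% of the fbxa mRNA reads in rde-4 neurons. The next in neurons by reads were fbxa-167 (78.8 ± 23.6 CPM), fbxa-67 (46.8 ± 15.8 CPM), fbxa-90, fbxa-137, fbxa-3, fbxa-146 and fbxa-13. In gonads no single member took such a share: fbxa-215 held 22.7% of fbxa reads (126 ± 33.0 CPM, SD, n = 3), followed by fbxa-101 (54.5 ± 5.3 CPM), fbxa-210, fbxa-206, fbxa-13, fbxa-114, fbxa-170 and fbxa-197. fbxa-13 was among the top 8 in both tissues, at 15.1 to 21.2 CPM in neurons and 17.4 to 20.0 CPM in gonads on each tissue's own scale, and the joint fit put it higher in neurons (log2 difference 0.88, SE 0.31, adjusted p = 0.0221, edgeR).

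Of 71 members tested between the tissues, 34 were higher and 28 lower in neurons, 87.3% beside 73.2% of all genes, of which 39% were higher and 34.2% lower. With library totals 28 were higher and 31 lower, and the median of all genes moved to -1.01, so that directions hold relative to that shift. fbxa-137 held 21.4, 54.6, 28.5 and 15.2 CPM in neurons, against 0, 0.348 and 0.166 CPM in gonads (log2 difference 9.26, adjusted p = 2.53e-06, edgeR). Also higher in neurons, by 5.74 to 7.86 on the log2 scale, were fbxa-50, fbxa-79, fbxa-3, fbxa-34, fbxa-10, fbxa-146, fbxa-37 and fbxa-167. In the other direction, fbxa-215 held 4.18, 0.218, 0.993 and 2.09 CPM in neurons, against 153, 88.5 and 135 CPM in gonads (log2 difference -5.14, SE 0.63, adjusted p = 1.43e-05, edgeR). fbxa-101 held 0.993 to 1.98 CPM in neurons, against 48.3 to 57.7 CPM in gonads (-4.36, SE 0.38, adjusted p = 6.37e-07, edgeR). fbxa-191, fbxa-200, fbxa-212, fbxa-121, fbxa-193, fbxa-129, fbxa-114 and fbxa-211 were lower in neurons as well, by 4.51 to 8.10 on the log2 scale.

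The members were also set in their order on the chromosomes. In the RefSeq gene order, 135 members lie in 41 runs of 2 or more adjacent members, the longest with 10 (fbxa-33, fbxa-34, fbxa-37, fbxa-50, fbxa-49, fbxa-36, fbxa-35, fbxa-28, fbxa-75 and fbxa-79), and 87 have no member beside them. Of 18 adjacent pairs with both members tested, 16 had the same sign in neurons against gonads (88.9%, beside 49.5% over all pairs of members tested), 13 were called in the same direction, and 2 were called in opposite directions. fbxa-24 and its neighbour fbxa-146 form one such pair. Pairs within a run share members, and adjacent pairs over all genes were not counted, so the share is not known to be particular to the family. Other mRNA comparisons ran from 33.3% of 9 adjacent pairs (neurons, pigSi3 against rde-4) to 90.9% of 11 (gonads, double mutant with against without pigSi3). Neither of these had a pair with both members called. In small RNA of rde-4 neurons against gonads, 18 of 35 adjacent pairs had the same sign (51.4%, beside 49.6% over all pairs). For the temperature difference in small RNA, adjacent pairs had the same sign in 19 of 38 cases in N2 (50%, beside 51.8% over all pairs). In rde-4 this held for 23 of 38 (60.5%, beside 55.9%).

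Small RNA of the family was compared between the same tissues, with 2 neuron and 3 gonad libraries. In rde-4 neurons against gonads, 13 of 120 members were higher and 11 lower, 20.0% beside 29.3% of all genes, of which 14.3% were higher and 15% lower. With library totals, which moved the median of all genes to -0.46, 6 were higher and 32 lower. fbxa-178 (log2 difference 1.41, adjusted p = 0.000324, edgeR), fbxa-188 and fbxa-179 were higher in neurons, as was fbxa-24 (3.13, adjusted p = 0.0175, edgeR). fbxa-184 (-2.80, SE 0.26, adjusted p = 0.000395, edgeR), fbxa-43, fbxa-194 and fbxa-115 were lower by 1.94 to 2.80 on the log2 scale. The F-box B and C genes stood at 36 higher and 4 lower of 112.

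Within neurons, fbxa-24 mRNA was lower in every WT and pigSi3 library than in rde-4, though neither difference passed the test in edgeR. WT neurons held 90.0, 421, 64.2 and 577 CPM and pigSi3 neurons 582, 622, 775 and 609 CPM, against 1737, 1545, 2575 and 1144 CPM in rde-4 neurons. Neither WT nor pigSi3 overlapped rde-4, while the lowest pigSi3 library (582 CPM) was close to the highest of WT (577 CPM). The log2 difference from rde-4 was -2.56 in WT (SE 0.67, adjusted p = 0.107, edgeR) and -1.37 in pigSi3 (SE 0.64, adjusted p = 0.569, edgeR). DESeq2 called the WT difference (-2.49), and edgeR did so without the fourth WT library (-3.22), while the adjusted p over all alternatives ran between 0.00238 and 0.256. edgeR called 0 of 55 members in WT against rde-4 neurons, beside 0.433% of all genes, with 6 at an unadjusted p under 0.05, and DESeq2 called 4, all lower in WT. Without the fourth WT library edgeR called 4. In pigSi3 against rde-4, edgeR called 0, beside 0.0236%, none had an unadjusted p under 0.05, and DESeq2 called 0. The summed family mRNA was 649 ± 302 CPM in WT and 1112 ± 107 CPM in pigSi3, against 2240 ± 636 CPM in rde-4 neurons (SD, n = 4 each).

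Marker levels varied among the WT neuron libraries. The summed level of 12 neuron markers was 22220, 25450, 15110 and 40560 CPM in WT, 37330 to 49610 CPM in pigSi3 and 39010 to 54670 CPM in rde-4. The 8 muscle markers summed to 24920, 6727, 18200 and 5939 CPM in WT, 9376 to 11510 CPM in pigSi3 and 10210 to 16700 CPM in rde-4. Among the WT libraries, fbxa-24 mRNA had the same order as the neuron marker sum, lowest in the third library and highest in the fourth. The fourth WT library held 577 CPM of fbxa-24. Its neuron marker sum was within the range of the other genotypes, and its muscle marker sum was the lowest of all. The part of the markers in the fbxa-24 values was not tested. fbxa-146 and fbxa-167 were also higher in neuron than in gonad mRNA. They overlapped between WT (1.96 to 23.0 and 12.2 to 100 CPM) and rde-4 (7.52 to 46.5 and 44.1 to 96.2 CPM). The small RNA of fbxa-24 went the other way, with more in WT neurons than in rde-4, as given above. In pigSi3 neurons it held 4.03 and 3.38 CPM, within the rde-4 range.

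**Figure D5:**
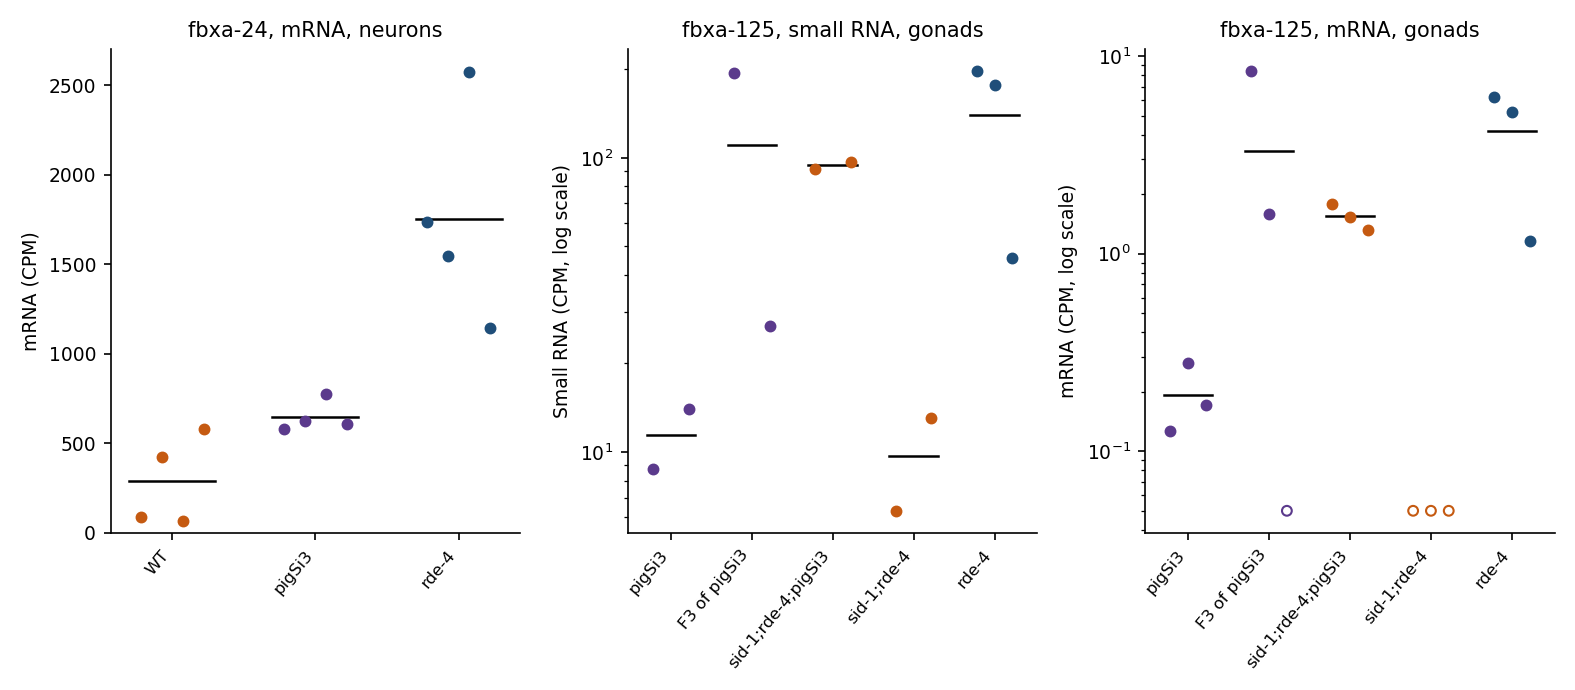
Left, fbxa-24 mRNA in CPM in neurons of WT, pigSi3 and rde-4. Middle and right, fbxa-125 small RNA and mRNA in CPM on log axes in gonads of 5 genotypes. Points are libraries, bars are group means and hollow points are libraries with 0 counts. fbxa-24 is at 64.2 to 577 CPM in WT neurons and 1144 to 2575 CPM in rde-4 neurons, and fbxa-125 is low in pigSi3 and in sid-1 rde-4 gonads for both kinds of RNA.

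pigSi3 neurons had 2 members called in small RNA, of 75 tested, 2.67% beside 0.955% of all genes: fbxa-60, described above, and fbxa-216. fbxa-216 held 95.5 and 126 CPM in pigSi3 neurons and 10.2 and 8.89 CPM in WT neurons, against 16.1 and 20.8 CPM in rde-4 neurons. pigSi3 stood well above both other genotypes (log2 difference from rde-4 2.56, SE 0.27, adjusted p = 2.28e-05, edgeR). The same gene was high in gonads of both sid-1 strains, with 140 and 170 CPM in the sid-1 rde-4 double mutant with pigSi3 and 161 and 187 CPM without it, against 11.3, 10.6 and 34.9 CPM in rde-4 gonads. pigSi3 gonads held only 12.5 and 13.1 CPM. Single libraries of the F3 of pigSi3 were also high, at 92.8 CPM beside 19.6 CPM in gonads and at 96.2 CPM beside 10.7 and 7.19 CPM in whole animals.

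Gonad small RNA was compared to ask whether neuronal RDE-4 changes it, with 2 libraries in each group and 3 in rde-4. pigSi3 gonads had 1 member higher and 2 lower of 122, 2.46% beside 1.98% of all genes. fbxa-93 held 50.7 and 40.1 CPM in pigSi3, against 24.1, 25.8 and 28.6 CPM in rde-4 (log2 difference 0.77, SE 0.14, adjusted p = 0.0244, edgeR). fbxa-60 held 36.6 and 49.5 CPM in pigSi3, against 111, 106 and 177 CPM in rde-4 (-1.63, SE 0.30, adjusted p = 0.0281, edgeR), and fbxa-139 was lower by 0.95 (adjusted p = 0.0281, edgeR). DESeq2 called 1 higher and 8 lower. The 12 neuron markers summed to 155.9 and 156 CPM of small RNA in pigSi3 gonads and 154.2 and 159 CPM in those of the double mutant described next, against 266.5 to 405.3 CPM in rde-4 gonads, and their part was not tested. The count was 0 without the first pigSi3 library and 1 without the second pigSi3 or the second rde-4 library. In the F3 of pigSi3, fbxa-193 alone was called, 0.82% of members beside 0.165% of all genes. It held 725 and 2108 CPM in F3 gonads, against 267, 306 and 256 CPM in rde-4 gonads (log2 difference 2.35, SE 0.32, adjusted p = 0.0355, edgeR), and 355 and 310 CPM in pigSi3 gonads. The call was lost without any one of the 3 rde-4 libraries. Without either F3 library that arm held 1 library, so no count of calls is given for those fits. In mRNA the same gene stayed at 1.27 to 6.33 CPM in all gonad groups.

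The sid-1 rde-4 double mutant was compared with rde-4 to ask what SID-1 adds. In small RNA, 2 members were higher and 2 lower of 122, 3.28% beside 3.31% of all genes: fbxa-216 (log2 difference 3.20, SE 0.58, adjusted p = 0.0218, edgeR) and fbxa-93 (0.65, adjusted p = 0.0354, edgeR) were higher, and fbxa-60 (-1.43, adjusted p = 0.0319, edgeR) and fbxa-175 (-1.39, adjusted p = 0.0354, edgeR) lower. The count was 0 without either double mutant library, 2 without the first and 1 without the second rde-4 library, and 8 with DESeq2. fbxa-60 held 34.6 and 62.5 CPM in the double mutant and 32.2 and 25.7 CPM in the double mutant with pigSi3, so that it was low in gonads whether or not the transgene was present once sid-1 was mutant. Adding pigSi3 to the double mutant gave 0 calls in edgeR, beside 0.573% of all genes, with 11 members at an unadjusted p under 0.05, and 1 call in DESeq2.

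Whether the pigSi3 difference itself depended on sid-1 was tested as the difference between both pigSi3 comparisons, a test chosen after the data were seen. fbxa-125 and fbxa-93 were called of 122 members, 1.64% beside 1.37% of all genes. fbxa-125 small RNA held 91.9 and 96.8 CPM in the double mutant with pigSi3, against 6.31 and 13.1 CPM in the double mutant, and 8.77 and 14.0 CPM in pigSi3, against 197, 176 and 45.7 CPM in rde-4. With sid-1 mutant the transgenic libraries were higher, and with sid-1 intact they were lower, without overlap in either case. The difference of the differences was 6.83 on the log2 scale (SE 1.31, adjusted p = 0.0429, edgeR), while neither single comparison was called (log2 difference 3.21, adjusted p = 0.411, and -3.63, adjusted p = 0.0888, edgeR). Its mRNA had the same order at low levels, with 1.78, 1.54 and 1.32 CPM in the double mutant with pigSi3, against 0 in all 3 double mutant libraries, and 0.126 to 0.279 CPM in pigSi3, against 6.23, 5.21 and 1.16 CPM in rde-4. No mRNA difference was called for it (adjusted p = 0.135 for the difference of differences, edgeR). The F3 of pigSi3 spread over the whole range, with 194 and 26.8 CPM of small RNA and 8.38, 1.59 and 0 CPM of mRNA. fbxa-93 held 29.6 and 30.8 CPM in the double mutant with pigSi3, against 39.1 and 43.3 CPM in the double mutant, the reverse of its order in rde-4 (difference of differences -1.20, SE 0.21, adjusted p = 0.0239, edgeR).

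Gonad mRNA of the family was little changed. The summed level averaged 522 to 595 CPM in the 5 groups. edgeR called 0 of 51 members in pigSi3 against rde-4, beside 0.483% of all genes, with 2 at an unadjusted p under 0.05 and 0 in DESeq2. The double mutant with pigSi3 against the double mutant gave 0 (beside 0.123%, with 6 at an unadjusted p under 0.05 and 0 in DESeq2), and the double mutant against rde-4 gave 0 (beside 0.388%, with 3 at an unadjusted p under 0.05 and 1 in DESeq2). The difference of both pigSi3 comparisons in mRNA gave 0 in edgeR (beside 0.416%, with 2 at an unadjusted p under 0.05), and it was not run in DESeq2.

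The F3 of pigSi3 differed from rde-4 in 28% of all genes in gonad mRNA, and in 5.88% of the members, 3 of 51, all lower. fbxa-191 held 1.17, 1.36 and 0.659 CPM in F3, against 2.7, 2.95 and 5.81 CPM in rde-4 (log2 difference -1.86, adjusted p = 0.0429, edgeR). fbxa-218 held 2.52, 1.36 and 2.97 CPM in F3, against 5.9, 8.17 and 4.48 CPM in rde-4 (-1.44, adjusted p = 0.0131, edgeR), and fbxa-128 differed by -1.33 (adjusted p = 0.0343, edgeR). With library totals 1 member was higher and 1 lower. The count was 0 without the second rde-4 or the second F3 library and 1 without the first or the third F3 library. Germline markers moved with this comparison, with 7 of 12 lower and 1 higher in F3 and sums of 7668 to 9322 CPM in F3, against 17030 to 19750 CPM in rde-4, and their part in these calls was not tested.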

How the data were processed

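The deposited tables hold raw read counts per gene, 1 table per library, which per the submitters' processing notes the authors obtained after trimming with cutadapt and counting with HTSeq on build ce10. FastQC and DESeq2 are also named there. No source used here gives the aligner, annotation, versions or use of strand. The labels' protocols name TRIZOL extraction, NEBNext or TruSeq small RNA kits, and Nextera XT for mRNA. Reads in no gene were kept out of library sizes and tests (17.3 to 71.4% in small RNA, 47.5 to 54.2% in mRNA), and no library was a copy of another.

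Every table was fitted over all genes in edgeR (version 4.0.16, under R 4.3.3) with a robust quasi-likelihood fit after TMM scaling and filterByExpr, with Benjamini-Hochberg adjusted p under 0.05 as a call. A member that failed the filter was not tested. CPM printed here are TMM-scaled over all libraries of a tissue and kind of RNA, while each test used its own fit's scaling. Log2 differences are fitted values with a small prior count, so that those of genes near 0 are not bounds. The labels name no batch, and whole-animal libraries were compared with rde-4 within the sets in which the records list them. pigEx9 used 2 sets with set as a term, although its F1 and F3 are listed in only the first of them. pigSi3 F3 was set against all 11 rde-4 libraries, and the temperatures were compared across sets. One library under 100000 gene counts was left out. DESeq2 1.42.0, other scalings, no filter, each library left out, the replicate number as a block and all 11 rde-4 libraries were the alternatives. Same-numbered libraries deviated together in N2 against rde-4 at 20 °C (correlations 0.104 to 0.38), pigSi3 against rde-4 in whole animals (0.125 to 0.311) and N2 between temperatures (0.274 to 0.427), each over 3 pairs. In neuron small RNA of pigSi3 against rde-4 the correlation was 0.191, but 2 pairs are too few to judge pairing. In no other comparison did every pair exceed 0.1. The procedure was tested on simulated counts.

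The members, gene lists and tests were chosen with earlier results of these data known. Named genes are members called without overlap in CPM and with a mean of at least 5 CPM (small RNA) or 1 CPM (mRNA) in the group with more, at most 10 a direction in the main comparisons and 4 in the others, with members called alike at both temperatures, the 8 with most reads per tissue, fbxa-158 and fbxa-75. fbxa-61 in the interaction and fbxa-129, fbxa-192, fbxa-55 outside its set and fbxa-24 within neurons were named after their values were seen. The RefSeq table of the species gave names (222 of 222 matched) and gene order only, since its build is not ce10. No sequences were used here.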

Additional observations from a re-analysis of the deposited data

Results flagged for a closer look

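Of 33 series of values tested for a library far from the others, 4 had one. Each series was a gene or the family sum in a group of 4 to 10 libraries. Chance gives about 1 in 20 for independent series, while these share libraries. The summed fbxa mRNA reached 1272 CPM in 1 pigSi3 neuron library, above the other 3. fbxa-180 small RNA reached 6.19 CPM in 1 pigEx9 P0 library, where the other 5 held 2.51 to 3.74 CPM. In rde-4 neuron mRNA, fbxa-212 at 0.11 CPM and fbxa-121 at 0.0836 CPM each stood out in 1 library at levels of very few counts.

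Differences that depended on a second factor were tested as such. The N2 difference from rde-4 in fbxa-61 small RNA was smaller at 25 °C than at 20 °C, by -4.89 on the log2 scale. The pigSi3 difference in gonad small RNA was called as differing between sid-1 mutant and sid-1 intact gonads for 2 members. These were fbxa-125 (6.83, adjusted p = 0.0429, edgeR) and fbxa-93 (-1.20 on the log2 scale, adjusted p = 0.0239, edgeR). That test was chosen after the data were seen, and it called 1.64% of the members beside 1.37% of all genes. Each of the differences in this paragraph rests on 2 or 3 libraries per group.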

How the results depend on the processing

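Counts of called members moved by over 1.5 times under the following alternatives. With DESeq2 they were 2 in pigSi3 F3 (0 in edgeR), 2 in pigEx9 F1 (1), 4 in pigEx10 P0 (2), 2 in pigEx10 F1 (0), 9 in the N2 by temperature interaction (1), and in gonad small RNA 9 in pigSi3 (3), 3 in its F3 (1), 1 in the sid-1 rde-4 pair (0) and 8 in the double mutant against rde-4 (4). DESeq2 also called 4 in WT neuron mRNA (0) and 1 in double mutant gonad mRNA (0). With no filter the counts were 2 in pigEx10 F1, 2 in the interaction, and 6, 0 and 1 in gonads of pigSi3, its F3 and the sid-1 rde-4 pair. Library totals gave 5 in the interaction and 38 (24) between neuron and gonad small RNA. All 11 rde-4 libraries gave 9 in pigSi3 (17) and 5 in pigEx10 P0, and turned fbxa-55 in N2 to -0.72. The first of the pigEx9 sets alone gave 8 in F1 and 5 in F3, the second 6 in P0 (19). The replicate block gave 28 in pigSi3 whole animals, where same-numbered libraries deviated together. Where not every pair did so, it gave 1 in pigSi3, 0 in F3 and 1 in double mutant gonad small RNA, and 1 in F3 gonad mRNA (3). It changed no other count by that much. The share of all genes called was not counted under the alternatives, so these counts have no background beside them. The causes were not tested.

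With 1 library left out, over 108 fits, the counts ranged over 29 to 38 for N2 at 20 °C, 21 to 36 at 25 °C, 1 to 6 for the interaction, 59 to 64 and 54 to 67 for temperature in N2 and rde-4, 7 to 13 for pigSi3, 11 to 25, 0 to 2 and 0 to 0 for pigEx9 P0, F1 and F3, and 2 to 3, 0 to 1 and 0 to 0 for pigEx10. Between neuron and gonad small RNA they ranged over 17 to 30. For the other small RNA comparisons in neurons and gonads, leaving out a library can leave 1 in a group, so no range is given. In mRNA they ranged over 0 to 4 in WT neurons, 0 to 2 in F3 gonads and 53 to 63 between tissues, and stayed at 0 in pigSi3 F3 whole animals and the other comparisons. Of 161 differences of named genes, 106 kept their direction and call under all alternatives run. The difference of both pigSi3 comparisons was added after the data were seen and had no alternatives. Groups of 2 or 3 libraries, and rde-4 levels near 0, limit what could be detected.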
